A study of Mus musculus with 24 samples.

Results

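Hip caps exposed to 50 MPa of hydrostatic pressure were compared with hip caps exposed to 5 MPa. The members are 7 of the 24 RNA-seq libraries of the series, chosen by their labels: H501, H503 and H504 at 50 MPa and H51 to H54 at 5 MPa. H502, also at this higher pressure, was not used, as the study did. A hip cap is the articular cartilage avulsed from the femoral head, and each library held both hip caps of 1 male mouse aged 4 weeks of the strain labelled C57/BL6, which the methods give as C57/BL6J. All explants of the series were cultured for 24 h, sealed in syringes in a water-filled vessel for 1 h, and cultured for a further 24 h before RNA was taken. Control hip caps (HC1 to HC4) went through the same steps at 0 MPa. Pools of 6 embryonic day 15 metatarsals, an organ culture model of growth plate cartilage, were treated at the same pressures (MC1 to MC4 at 0 MPa, M51 to M54 at 5 MPa, M501 to M504 at 50 MPa). The lower pressure was meant as physiological and the higher as injurious, so the comparison asks what separates these loads in articular cartilage.

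Chondrocytes live in a matrix of type II collagen and aggrecan whose bound water carries load as hydrostatic pressure. They sense loading through ion channels, integrins and the cilium, and answer with changes in matrix synthesis, proteases and prostaglandin signalling. Excessive load is known to shift cartilage towards matrix breakdown and inflammatory mediators, whereas moderate cyclic load is known to favour matrix synthesis.

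The groups differed in more than pressure. H501, H503 and H504 came from sequencing run 1 and were listed as unstranded libraries, and H51 to H54 came from run 2 and were listed as stranded. Run was read from a figure of the study and does not match the library numbers per sequencing kit in its methods. The run label is therefore less certain than the pressures. The methods also call all libraries strand specific, although their model holds a term for the strandedness of the library. The labelled library type matched the mitochondrial tRNA counts, given below, in every library looked at. No run and no library type held both groups, so a value within a batch cannot be given, and pressure, run and library type cannot be told apart within these 7 libraries. Other libraries crossed the batches at 1 pressure. M504 was run 1 and unstranded beside M501 to M503 (run 2, stranded), MC1 was run 1 beside MC2 to MC4 (both stranded), and HC3 was unstranded beside HC1 and HC2 (all run 1). Total estimated counts ranged from 12736652 to 25104484 in the 5 MPa group and from 7565386 to 13902923 in the 50 MPa group. H504 stood apart: 27.5% of its counts fell in protein-coding genes, against 39.2% to 65.8% in the other 6 libraries. The chondrocyte markers, led by Col2a1, summed to between 21196 and 49605 CPM (counts scaled to a common library total) at 5 MPa and between 31087 and 34538 CPM at 50 MPa, so the tissue label held in every library.

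With run and library type in the model, no gene passed the threshold between 50 and 5 MPa. The fit used edgeR on 22 libraries, tested 21283 genes and called 0 genes higher and 0 lower (0% of genes) at a Benjamini-Hochberg adjusted p of at most 0.05. An unadjusted p under 0.05 was reached by 1017 genes (4.78%), and the smallest adjusted p was 0.163. DESeq2 on the same libraries and terms called 23 genes higher and 11 lower (0.108% and 0.0517% of genes), of which 6 and 8 were named genes rather than predicted ones, and limma-voom with quality weights called 1. The contrast drew a weight of -0.68 from M504 against 0.333 from each hip cap library at 50 MPa, and the fold changes (log2) had a median SE of 0.471, against 0.274 in a fit of the 7 libraries alone.

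That fit of the 7 libraries, which has no batch terms, called 209 genes higher and 44 lower at 50 MPa out of 17214 tested (1.21% and 0.256%). An unadjusted p under 0.05 was reached by 1681 genes (9.77%). This fit measures pressure, run and library type together. In all 253 genes the groups did not overlap. Across the 21283 genes, 1433 (6.73%) had all 3 libraries at 50 MPa above all 4 at 5 MPa and 1382 (6.49%) had them all below. Without H504 the 7-library count grew to 782 higher and 101 lower. Without H501 it was 119 higher and 15 lower, and 88 of the 209 and 10 of the 44 genes were called whichever of the 7 libraries was left out.

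Many of the genes called in the 7 libraries differed between metatarsal libraries too, at equal pressure. Of the 209 genes higher at 50 MPa, 97 (46.4%) were also at least 1 log2 unit higher in M504 than in M501 to M503, 1 was at least 1 unit lower, 21 differed by less than 1 and 90 were under 1 CPM in the metatarsals. Of the 44 genes lower at 50 MPa, 21 (47.7%) were also at least 1 unit lower in M504, 1 was higher by that size and 20 differed by less. Over all genes tested, 4.9% differed by at least 1 unit in M504 with the sign of their hip cap difference, whatever the size of the latter. The shares of all genes given below are counted in the same way. Library type within the hip caps gave a like picture: 125 of the 209 genes were at least 1 unit higher in HC3 than in HC1 and HC2, and 28 of the 44 at least 1 unit lower, beside 8.8% of all genes. In HC1 to HC3, 50 of the 209 and 7 of the 44 were under 1 CPM. Run alone, MC1 against MC2 to MC4, shared 13 of the 209 (6.2%) and 17 of the 44 (38.6%), beside 3.8% of all genes. However, 142 of the 209 (67.9%) and 1 of the 44 were under 1 CPM in these libraries, beside 20.2% of all genes. The share of the 209 is therefore limited by what could be measured there. HC1 and HC2 against HC4, hip cap controls that differ in run, shared 33 of the 209 and 22 of the 44, beside 17.1% of all genes. The other sign at this size was found in 21 and 6, beside 16.8% of all genes. The study left HC4 out as an apparent outlier. Its chondrocyte markers summed to 8586 CPM against 45156 to 72731 in HC1 to HC3, so run and tissue content cannot be told apart in this comparison. Among all genes with a difference of at least 1 unit and no overlap, 239 of 923 higher and 157 of 680 lower ones were shared with M504, and 30 and 133 with MC1. Under 1 CPM were 570 and 249 of them in M501 to M504, and 686 and 198 in MC1 to MC4. Across the 21283 genes the hip cap difference had a Spearman correlation of 0.399 with the M504 difference, 0.312 with the HC3 difference and 0.067 with the MC1 difference. These are descriptions across genes, which are not independent of each other.

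**Figure D1:**
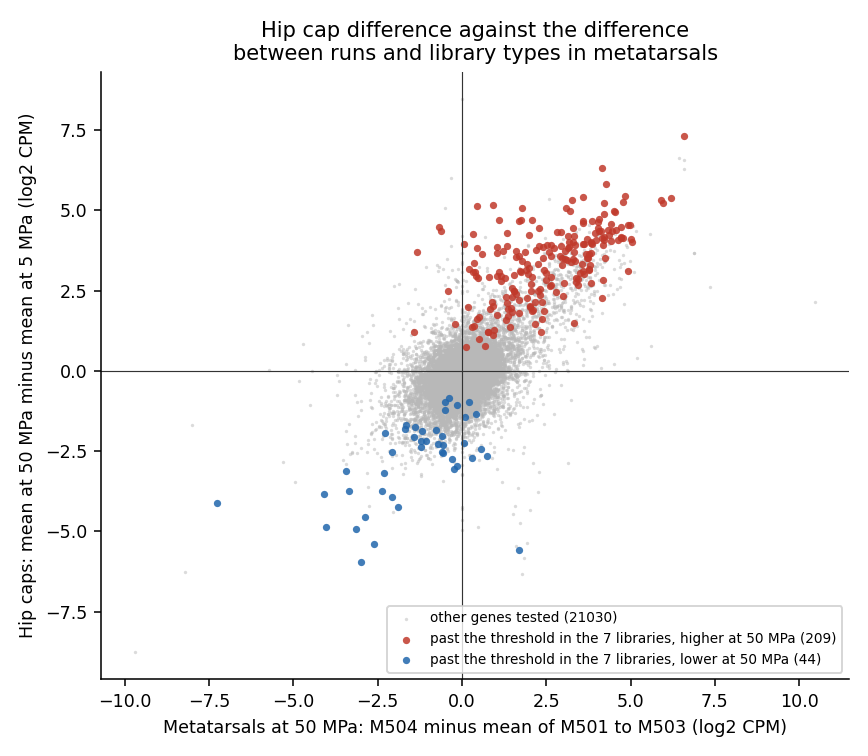
Each point is 1 of the 21283 genes tested, with the difference in mean log2 CPM between hip caps at 50 and 5 MPa on the y axis and the difference between M504 and M501 to M503, all at 50 MPa, on the x axis. The 209 genes higher (red) and 44 lower (blue) in the 7-library test lie mostly along the diagonal, where both differences have the same sign.

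**Figure D2:**
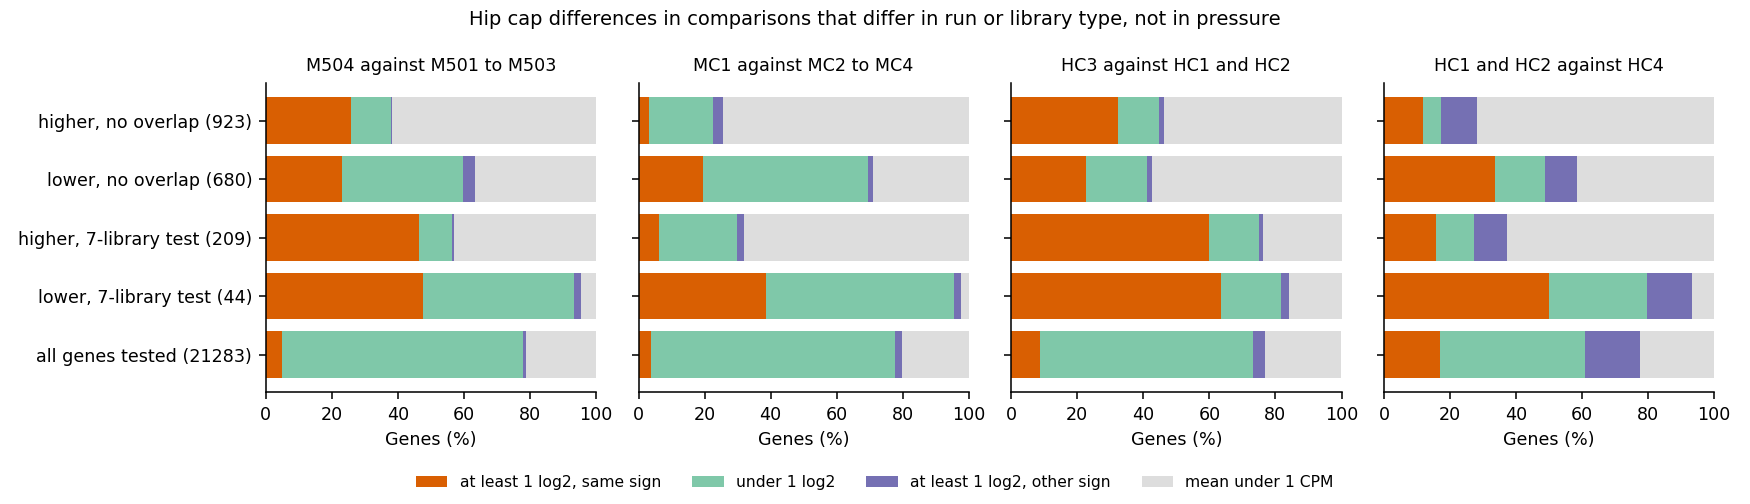
Bars give the percentage of genes in each set (rows, with the number of genes) that show the hip cap difference again in comparisons at 1 pressure: M504 against M501 to M503, MC1 against MC2 to MC4, HC3 against HC1 and HC2, and HC1 and HC2 against HC4. Orange is a difference of at least 1 log2 unit with the same sign, green one under 1 unit, purple one of at least 1 unit with the other sign, and grey a mean under 1 CPM. Orange is widest for the genes past the 7-library threshold in the M504 and HC3 panels and narrow over all genes.

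Many genes called in the 7 libraries were predicted ones. Of the 209 higher genes, 145 (69.4%) were predicted genes, pseudogenes or without a symbol, against 26.4% of all genes tested, and 91 (43.5%) had an exon that overlaps an exon on the other strand, against 26%. Of the 44 lower genes, 23 (52.3%) were predicted, pseudogenes or without a symbol, and 8 (18.2%) had such an overlap, a smaller share than over all genes. Of the 64 higher genes with a name, 7 were named as antisense or opposite-strand transcripts (Sox6os, Hoxaas2, Ube4bos3, Hoxaas3, Bcas3os1, Zmiz1os1 and Runx2os2). In an unstranded library the reads of a gene and of its partner on the other strand cannot be told apart.

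The tRNA genes of the mitochondrial genome separated the libraries by type. Both strands of mitochondrial DNA are transcribed as long precursors from which tRNAs are cut. The 8 tRNA genes annotated on the minus strand summed to 0.536, 0.352, 0.361 and 0.439 CPM in H51 to H54 and to 74.7, 30.4 and 82.9 CPM in H501, H503 and H504. They summed to 47.8 CPM in HC3 against 0.272 and 2.07 in HC1 and HC2, and to 45.5 CPM in M504 against 0.623 to 1.08 in M501 to M503. In the 14 libraries looked at, the 5 unstranded ones were thus high and the stranded ones low, in hip caps and in metatarsals at 50 MPa. The 14 plus-strand tRNA genes summed to 1.34 to 4.38 CPM at 5 MPa and 2.29 to 4.33 at 50 MPa. Of the 8 minus-strand genes, 7 were higher at 50 MPa without overlap, beside 6.73% of all genes. In the 7 libraries 5 of them (mt-Ta, mt-Tc, mt-Tn, mt-Ts1 and mt-Ty) were called higher, beside 1.21% of all genes tested there. Of the 14 plus-strand genes, 0 were higher without overlap. Only 3 of those 14 were tested, and 1, mt-Tl1, was lower without overlap, at 0.139 to 0.309 CPM against 0.352 to 0.830. Over all genes 6.49% were lower without overlap.

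**Figure D3:**
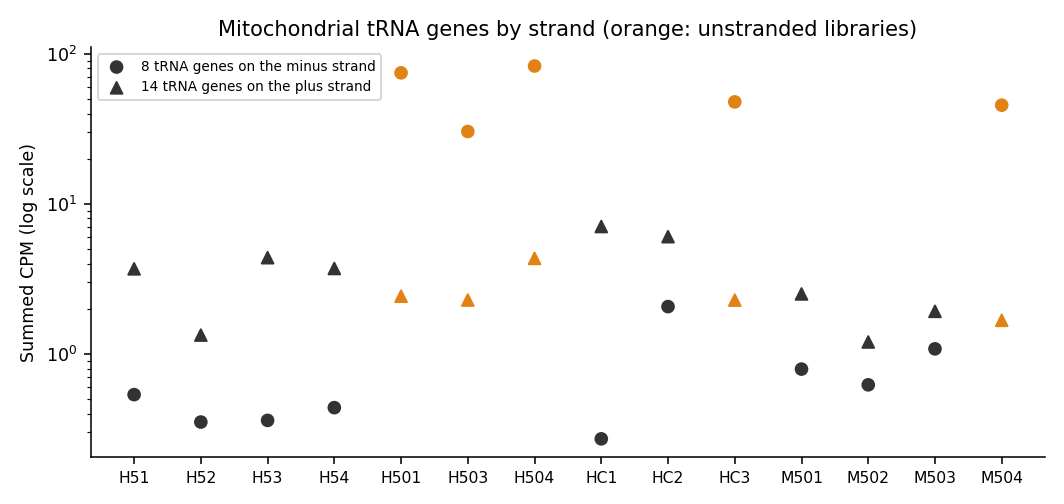
Summed CPM (log scale) of the 8 minus-strand (circles) and 14 plus-strand (triangles) mitochondrial tRNA genes in each of 14 libraries, with unstranded libraries in orange and stranded ones in black. Circles lie between 30.4 and 82.9 CPM in the 5 unstranded libraries shown and at or below 2.07 CPM in the 9 stranded ones shown, and triangles do not separate by library type.

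The respiratory subunits encoded by mitochondrial DNA were lower at 50 MPa, by a median of -1.58 log2 units over 13 genes. Of the 13, 10 were lower without overlap between the groups, beside 6.49% of all genes. mt-Nd4, a subunit of complex I, read 1350, 1390, 1938 and 1744 CPM in H51 to H54 and 233, 683 and 409 CPM in H501, H503 and H504. mt-Co1, the catalytic subunit of complex IV, averaged 3974 ± 744 CPM (SD, n = 4) at 5 MPa and 2024 ± 918 (n = 3) at 50 MPa. The 12 plus-strand genes had differences between -2.21 and -0.73, and mt-Nd6, the only one on the minus strand, had a difference of 0.24. The same genes had a median of -0.86 in M504 against M501 to M503 and of -2.93 in HC3 against HC1 and HC2, and their median turned to 0.30 once run and library type entered the model. HC1 and HC2 differed widely themselves, with 19.8 and 563 CPM of mt-Nd4. None of the 13 passed either test. Nuclear genes of the respiratory chain and ATP synthase did not share the difference: their median was 0.20 over 76 genes, with 2 higher and 3 lower without overlap. Leaving out H504 gave them a median of 0.02, with 2 higher and 11 lower, beside 14.3% and 12.1% of all genes.

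A small set of named genes passed the 7-library test without a difference of at least 1 unit of the same sign in M504, MC1 or HC3. They were 8: Mkrn2, Bdh2, Unc45a, Fbxw2 and Ttn higher, and Snai2, Gxylt2 and Gstm1 lower at 50 MPa. A limit of 1 unit does not separate genes whose own difference is smaller. Unc45a, a myosin chaperone, averaged 20.3 ± 2.55 and 35.0 ± 2.09 CPM, a difference of 0.79, and differed by 0.68 in M504 and 0.74 in HC3. In the metatarsal batch fit Unc45a, Mkrn2 and Bdh2 were called with the same sign, with edgeR adjusted p of 0.0213, 0.00847 and 0.0287. Gstm1, a glutathione S-transferase that detoxifies electrophiles, read 115, 98.1, 129 and 104 CPM in H51 to H54 and 64.7, 60.9 and 45.2 CPM in H501, H503 and H504. The groups did not overlap, and the log2 fold change was -1.05 ± 0.205 (SE) with batch terms, with an adjusted p of 0.163 in edgeR, and -0.95 ± 0.176 in the 7 libraries, with an adjusted p of 0.0336. DESeq2 with batch terms called it lower. In the metatarsals Gstm1 held between 43.1 and 47.3 CPM in the controls, MC1 included, and between 46.8 and 55.2 at 50 MPa, M504 included. The hip cap controls of run 1 read 68.8, 65.2 and 61.6 CPM, at the level of the 50 MPa group or just above it. HC4, the only hip cap control of run 2, read 125 CPM, within the range at 5 MPa. HC4 was not among the 22 libraries fitted, and its chondrocyte markers summed to 8586 CPM, below every hip cap library used. The high hip cap libraries were those of run 2, at 0 MPa in HC4 alone and at 5 MPa. Whether run had a part in the Gstm1 difference was not tested.

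Snai2, the zinc finger repressor Slug, read 44.9, 42.3, 35.5 and 43.9 CPM at 5 MPa and 19.6, 21.7 and 21.7 CPM at 50 MPa. Its log2 fold change was -0.98 in the 7 libraries (edgeR adjusted p of 0.0105) and -0.68 with batch terms (adjusted p of 0.980). M504 lay 0.50 log2 units below M501 to M503, while MC1 lay 0.45 above MC2 to MC4 and HC4 read 15.2 CPM. Among the other controls HC3 lay 0.30 below HC1 and HC2, and the 50 MPa group lay 0.35 below HC3. Fbxw2, an F-box subunit of ubiquitin ligases, read 24.6, 23.7, 26.9 and 22.2 CPM at 5 MPa and 46.5, 42.8 and 34.0 at 50 MPa. It differed by 0.17 or less in size in M504, MC1 and HC3, but the controls, between 28.3 and 40.8 CPM, bridged the groups. Mkrn2, a RING-type ubiquitin ligase of the makorin family, averaged 16.8 ± 1.70 CPM at 5 MPa and 40.0 ± 11.3 at 50 MPa, and was 0.76 units higher in M504 and 0.89 higher in HC3, so part of its 1.24 units recurred there. Bdh2, a short-chain dehydrogenase, averaged 2.53 ± 0.859 and 9.66 ± 1.64 CPM, with 0.82 units in M504 and 0.76 in HC3. Gxylt2, which adds xylose to O-glucose on Notch repeats, read 43.9 to 52.5 CPM at 5 MPa and 24.5 to 30.7 at 50 MPa, with HC3 at 28.4 beside 57.9 and 49.6 in HC1 and HC2.

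**Figure D4:**
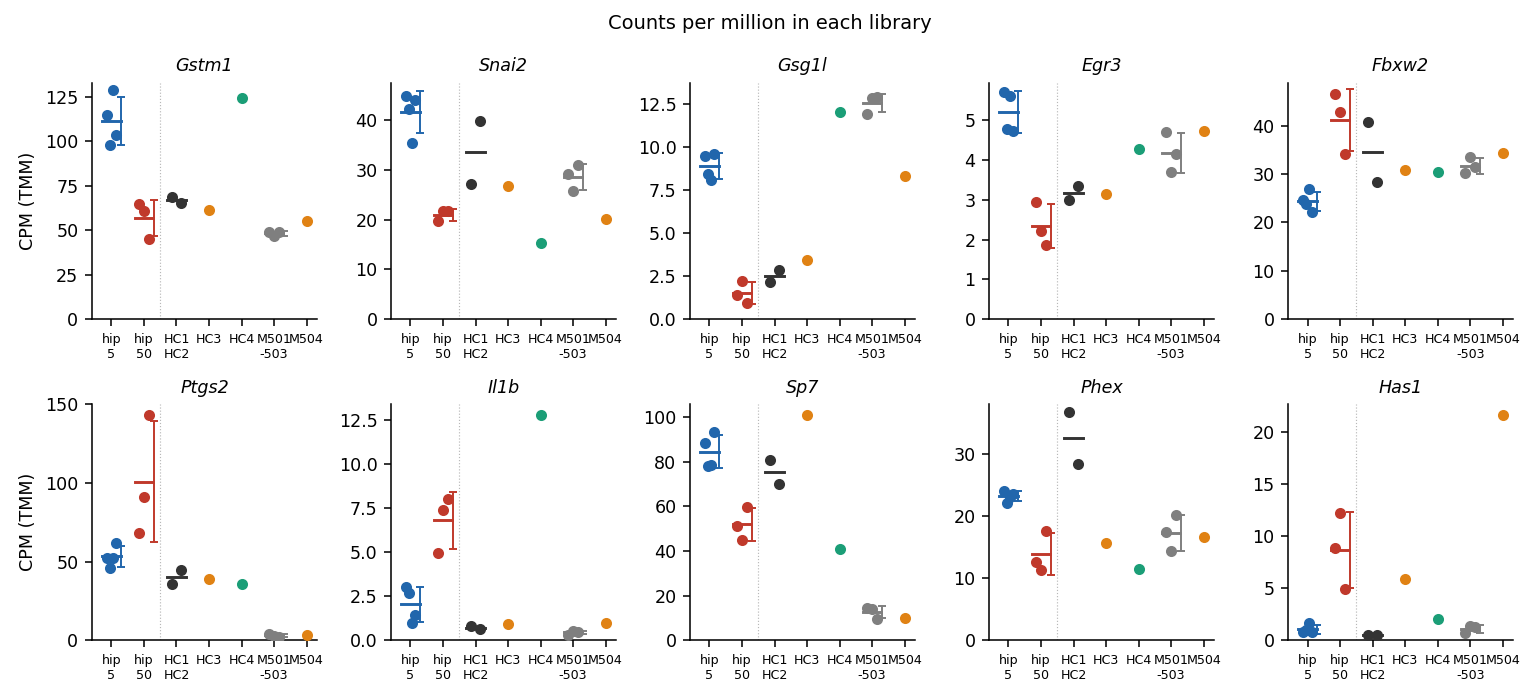
CPM of 10 genes in each hip cap library at 5 MPa (blue) and 50 MPa (red), in the controls (HC1 and HC2 in black, the unstranded HC3 in orange, HC4 of run 2 in green, scaled with all 24 libraries) and in metatarsals at 50 MPa (M501 to M503 in grey, M504 in orange), with horizontal lines for means of 2 or more libraries and bars for the SD of 3 or more. Gstm1 and Gsg1l are high at 5 MPa and in HC4 and low at 50 MPa and in HC1 to HC3, while Has1 is high in the unstranded libraries at both 0 and 50 MPa.

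Ttn, the giant spring protein of striated muscle, read 10.3, 10.4, 17.5 and 14.6 CPM at 5 MPa and 22.7, 35.1 and 34.7 at 50 MPa, with 68.1 in H502. Its log2 fold change was 2.28 ± 0.578 with batch terms (adjusted p of 0.511 in edgeR and 0.0192 in DESeq2, which called it) and 1.23 ± 0.237 in the 7 libraries (adjusted p of 0.0416). Ttn lay 1.43 units lower in M504, opposite to the hip caps, although muscle varied widely between metatarsal pools. Myh3, the embryonic myosin heavy chain, averaged 0.411 CPM at 5 MPa and 1.41 at 50 MPa without overlap, and Myh8, the perinatal one, averaged 1.80 and 0.513 without overlap, the other way. Over 14 muscle markers the summed level was 22.7 to 48.5 CPM at 5 MPa and 40.6 to 64.7 at 50 MPa, and Myog was at 3 counts or fewer in all 7 libraries. Of 12 tested markers, 2 were higher and 1 lower without overlap, beside 6.73% and 6.49% of all genes. Whether muscle content had a part in the Ttn difference was not tested. In these bulk samples, fewer cells of a type and less RNA per cell cannot be told apart.

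Since no gene passed the threshold of the 22-library fit, the genes with the smallest p and no overlap were listed in its place. None of them passed in edgeR, and DESeq2 with the same terms called Mab21l1 and Ttn higher and Gsg1l, Gstm1, Zfp414, Islr and Nlgn3 lower. Gsg1l, an auxiliary subunit of AMPA receptors, led the lower ones with 9.47, 8.44, 8.09 and 9.62 CPM at 5 MPa and 1.37, 2.22 and 0.928 at 50 MPa, a log2 fold change of -1.68 ± 0.296 with an edgeR adjusted p of 0.163. It also differed between runs in the metatarsals: MC1 read 6.70 CPM beside 18.7 to 20.2 in MC2 to MC4, and M504 read 8.30 beside 11.96 to 12.9 in M501 to M503. HC4 of run 2 read 12.03 CPM while HC1 to HC3 read 2.17 to 3.43, but HC4 is a single library that also differed in tissue content, and M504 differed in library type too. Whether run had a part in the Gsg1l difference was not tested. Zfp414, a zinc finger protein, averaged 14.1 ± 1.76 CPM at 5 MPa and 7.25 ± 1.29 at 50 MPa, with a fold change of -0.99 ± 0.240 and a difference of 0.12 in M504. Islr, a leucine-rich repeat protein of mesenchymal cells, averaged 84.9 ± 5.53 and 61.3 ± 5.74 CPM, below the 108 to 155 CPM of HC1 to HC3, and M504 lay 0.38 above M501 to M503. Scap, the escort of the sterol-sensing SREBP factors, averaged 44.8 and 34.7 CPM, and Pigt, a subunit of the GPI transamidase, 55.2 and 32.7. Nlgn3, a synaptic adhesion protein, averaged 3.55 and 1.32 CPM, Mfap2, a microfibril protein, 7.70 and 3.55, and Mfsd10, a membrane transporter, 18.4 and 13.9. Xkrx, Slc6a5 and Olfr109 were under 3 CPM on average in every case, and in the left-out H502 they read 202, 14.3 and 14.1 CPM.

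Among the higher ones, 9 of 12 averaged under 5 CPM at 50 MPa. Tnfaip6, the hyaluronan-binding protein TSG-6 that inflammation induces, read 1.55, 1.41, 1.91 and 1.95 CPM at 5 MPa and 3.80, 7.56 and 2.17 at 50 MPa. It lay 0.20 lower in M504 and 0.40 lower in MC1, so the metatarsal batches did not show it. Btc, the EGF receptor ligand betacellulin, averaged 0.833 and 2.38 CPM with -0.26 in M504 and 0.33 in MC1. Shmt1, the cytosolic serine hydroxymethyltransferase of folate metabolism, averaged 1.88 ± 0.510 and 4.53 ± 0.191 CPM, with HC1 to HC3 between 2.71 and 4.57. Gpr162, an orphan receptor, differed by library type as well: it averaged 0.218 and 15.1 CPM, but HC3 read 28.01 beside 0.272 and 0.159 in HC1 and HC2, and M504 lay 3.26 units above M501 to M503. Mab21l1, Dbndd1, Kcnip4 and Cacnb4 averaged 0.269 CPM or less at 5 MPa and between 1.17 and 2.34 at 50 MPa. Mab21l1, Kcnip4 and Cacnb4 overlap a gene on the other strand, and Dbndd1 was 4.26 units higher in HC3. Efcab8 and Vmn2r1 differed by 0.41 and 0.67 units. Gpr17 and Tmem80, called in the 7 libraries with less than 0.5 units in M504, were 6.25 and 2.17 units higher in HC3 than in HC1 and HC2. The lower genes chosen in the same way, Vmn1r224, Olfr1039, Olfr620, Gpr37 and Bmt2, lay between -2.61 and -1.03 in HC3. Between runs in the metatarsals, Vmn1r224, Olfr1039 and Gpr37 recurred, at -1.999, -1.99 and -1.31 in MC1 against MC2 to MC4, and Olfr620 and Bmt2 differed by -0.58 and -0.07. Of these 5, the 4 receptors (all but Bmt2) read between 18.6 and 52.5 CPM in H502 against 1.06 or less on average in the 3 libraries used. HC4 lay nearer to the 5 MPa mean than to the 50 MPa mean for 13 of the 17 lower genes named by these rules and for 7 of the 14 higher ones.

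Inflammatory mediators held 4 of 29 genes that were higher at 50 MPa without overlap, beside 6.73% of all genes, and none of the 29 passed edgeR with batch terms or in the 7 libraries. Of the 4, Il1b alone recurred between metatarsal libraries at a size of 1 log2 unit. Of 29 tested mediators, 21 had a positive difference, the 4 without overlap were Il1b, Ccl2, Ptgs2 and Ptges, and 0 were lower, with a median of 0.20 beside -0.04 over all genes. Leaving out H504 gave 5 higher (17.2%) and 0 lower, beside 14.3% and 12.1% of all genes, with a median of 0.33. The share of higher mediators was then near that of all genes. Ptgs2, the inducible cyclooxygenase that starts prostaglandin synthesis, read 52.6, 46.1, 52.5 and 62.1 CPM at 5 MPa and 67.9, 91.2 and 143 at 50 MPa. Its log2 fold change was 1.16 ± 0.541 with batch terms (edgeR adjusted p of 0.980), and M504 differed by 0.04 and HC3 by -0.06. Ptges, which makes prostaglandin E2 from the product of Ptgs2, averaged 25.0 ± 4.18 and 47.1 ± 17.7 CPM, with 0.58 units in M504. Il1b, a cytokine that drives cartilage breakdown, read 3.04, 2.67, 0.979 and 1.46 CPM at 5 MPa and 4.96, 7.42 and 8.05 at 50 MPa, but it was also 1.16 units higher in MC1 and 0.96 in M504, at under 1.1 CPM in both. Ccl2, a monocyte attractant, averaged 37.3 ± 9.70 and 52.4 ± 1.42 CPM. HC1 to HC3 lay below both pressures for Il1b and Ccl2, at 0.953 CPM or less and between 8.29 and 14.3 CPM, whereas HC4 read 12.8 and 150 CPM, above both pressures. Macrophage markers summed to 112 to 699 CPM at 5 MPa and 161 to 315 at 50 MPa, with 0 of 9 tested markers higher without overlap.

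Of 27 tested matrix proteases, 2 were higher without overlap (Plat and Mmp10) and 0 lower, near the 6.73% of all genes that were higher, and of the protease inhibitors Serpina1d was lower without overlap. Plat, the tissue plasminogen activator, averaged 6.59 ± 2.77 CPM at 5 MPa and 13.0 ± 1.60 at 50 MPa. It differed by 0.33 units in M504. Mmp10, stromelysin-2, averaged 0.696 and 2.18 CPM. Serpina1d, a variant of the antitrypsin inhibitor, averaged 74.7 ± 25.0 and 32.7 ± 4.86 CPM, was called lower by DESeq2 with batch terms, and shares near-identical copies, so its reads are uncertain. Mmp13, the main collagenase of cartilage, averaged 1023 ± 241 and 1233 ± 429 CPM with overlapping groups.

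Some bone-forming genes were lower at 50 MPa. Of 8 tested osteoblast markers, 4 were lower without overlap and 0 higher, beside 6.49% of all genes that were lower. Their median was -0.68. In the hypertrophy list 3 of 19 were lower (Ibsp, Sp7 and Dlx6). Without H504 the hypertrophy list held 10 lower genes without overlap, with a median of -0.48, while the share over all genes grew to 12.1%. Sp7, the osteoblast transcription factor osterix, read 88.3, 77.9, 78.7 and 93.4 CPM at 5 MPa and 51.4, 45.0 and 59.7 at 50 MPa. Ibsp, the matrix protein bone sialoprotein, averaged 943 ± 127 and 601 ± 98.0 CPM. Phex, an endopeptidase of mineralizing cells, read 24.1, 22.1, 23.1 and 23.6 CPM at 5 MPa and 12.7, 11.4 and 17.6 at 50 MPa, and Mepe, a phosphoglycoprotein of bone matrix, averaged 6.05 and 3.04. Sp7 and Ibsp differed in the same direction between runs in the metatarsals, by -1.21 and -0.89 in MC1 and by -0.30 and -0.62 in M504, and Ibsp had a fold change of 0.15 with batch terms. Phex was lower in HC3, by -1.04, but not in MC1 (0.51) or M504 (-0.04). Its fold change was -0.58 ± 0.275 with batch terms (edgeR adjusted p of 0.980), but 0.013 with all 24 libraries and 0.31 with the 10 hip cap libraries and library type alone. The osteoblast markers summed to 9972 CPM in H53 and to between 2207 and 3687 CPM in the other 3 libraries at 5 MPa, with Col1a1 at 5362 CPM in H53. At 50 MPa they summed to between 2104 and 2949 CPM. The list had a median of 0.17 in M504 and 0.09 in HC3.

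Cartilage matrix genes mostly overlapped between the pressures. Of 27 tested, 4 had a positive difference and the median was -0.21. Without overlap, 1 was lower (Prg4), beside 6.49% of all genes. With batch terms the median was -0.59, and in M504 it was 0.35. Col2a1, type II collagen, averaged 26507 ± 9544 CPM at 5 MPa and 22412 ± 2226 at 50 MPa, and Acan, aggrecan, 4242 ± 1400 and 4710 ± 1211. Sox9, the master regulator of chondrocytes, averaged 509 ± 149 and 362 ± 103 CPM, and Col10a1, the collagen of hypertrophic chondrocytes, 3807 ± 1167 and 6949 ± 3897, all with overlap. Prg4, the surface lubricant lubricin, averaged 7662 ± 2330 and 3597 ± 1620 CPM, and MC1 lay 2.76 units lower than MC2 to MC4. Lum, a collagen-binding proteoglycan, averaged 103 ± 7.87 and 71.1 ± 13.2 CPM and did not differ by 1 unit in M504 (0.23) or MC1 (0.21), but was 0.88 lower in HC3.

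The hyaluronan synthases Has1 and Has3 differed between libraries at 1 pressure too, while Has2 averaged 20.6 ± 4.58 CPM at 5 MPa and 26.8 ± 12.2 at 50 MPa with overlap. Has1 read 0.833, 0.984, 1.70 and 0.781 CPM at 5 MPa and 8.86, 12.3 and 4.95 at 50 MPa, and Has3 0.536, 0.281, 1.08 and 0.537 against 7.59, 9.08 and 2.48. Both passed the 7-library test, with log2 fold changes of 3.05 and 3.42 and edgeR adjusted p of 0.00721 and 0.0144. Yet Has1 was 4.17 units higher in M504 and 3.22 in HC3, and Has3 3.50 and 4.49, so the unstranded libraries HC3 and M504 read high as well. With batch terms their fold changes were -1.02 ± 0.563 and -0.24 ± 0.724. Has3 overlaps Chtf8 on the other strand, which averaged 38.6 CPM at 5 MPa. The other 26 tested genes of glycosaminoglycan synthesis held 0 higher and 2 lower (Chst15 and Ext2) without overlap, beside 6.49% of all genes that were lower.

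With all 7 libraries, the counts of growth factor and early response genes stand beside 6.49% of all genes that were lower without overlap. Read against it they are no result about these lists. In the BMP and TGF-beta list, 3 of 32 were lower without overlap and 0 higher. Tgfb2, a ligand that maintains articular chondrocytes, read 44.4, 42.3, 45.8 and 53.8 CPM at 5 MPa and 28.5, 32.4 and 23.5 at 50 MPa, with a fold change of -0.51 ± 0.211 and an edgeR adjusted p of 0.980. It differed by -0.11 in M504, 0.10 in MC1 and -0.46 in HC3. Bmp5 averaged 10.9 ± 3.02 and 6.12 ± 0.294 CPM, and its kinase receptor Bmpr2 159 ± 4.22 and 135 ± 16.9. Egr3, an immediate early zinc finger factor, read 5.72, 4.78, 5.62 and 4.74 CPM at 5 MPa and 2.95, 2.22 and 1.86 at 50 MPa, a fold change of -1.14 ± 0.343 with an edgeR adjusted p of 0.709, and HC1 to HC3 lay between 2.99 and 3.34. Its difference was 0.18 in M504, -0.35 in MC1 and -0.01 in HC3. The other 25 early response genes held 0 without overlap. The Wnt list held 1 lower gene of 29, the antagonist Wif1, at 184 ± 13.8 and 136 ± 26.5 CPM, and the FGF and IGF list 1 of 25, the receptor Fgfr2. Without H504 the lower genes were 7 of 32 in the BMP and TGF-beta list (21.9%) and 7 of 26 early response genes (26.9%). They were 3 of 29 in the Wnt list and 2 of 25 in the FGF and IGF list, beside 12.1% of all genes. None of these lists then held a higher gene, beside 14.3% of all genes.

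Among 32 mechanosensitive and calcium channels, 3 were higher without overlap, beside 6.73% of all genes, and 0 lower, and all 3 were scarce. Trpm5, a cation channel, averaged 1.91 and 2.83 CPM, Kcnk4, the stretch-gated potassium channel TRAAK, 0.518 and 1.73, and P2rx5, a receptor for ATP, 0.975 and 1.77. P2rx5 was 1.5 units higher in M504, Kcnk4 was 1.03 higher in HC3, and Trpm5 overlaps Tssc4 on the other strand. The channels best known in chondrocytes overlapped between pressures: Piezo1 averaged 241 ± 18.1 and 220 ± 30.7 CPM, and Trpv4 163 ± 55.2 and 135 ± 44.7.

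Stress programmes gave few separated genes, beside 6.73% of all genes that were higher and 6.49% that were lower without overlap. In the heat shock list 1 of 25 was higher, in the unfolded protein response 1 of 27 (the chaperone Hspa5, 361 ± 26.95 and 542 ± 182 CPM), and among p53 and cell death genes 2 of 27 (Gadd45a and Ccng1). Gadd45a, a growth arrest gene, averaged 15.1 ± 1.53 and 24.9 ± 8.72 CPM with 0.83 units in M504. The antioxidant, YAP and Hippo, glycolysis and hypoxia, circadian and cell cycle lists held 0 genes without overlap in either direction. Glycolytic and hypoxia genes had a positive difference in 28 of 31, beside 9763 of all 21283 genes. Their median was 0.25, but 0.09 without H504, and the M504 median was -0.21. Cytosolic ribosomal protein genes had a median of 0.20, and 0.43 in M504, with 2 of 79 higher and 1 lower (Rpl10) without overlap; leaving out H504 turned this median to -0.17, with 29 of 79 lower beside 12.1% of all genes. Histone genes of S phase had a median of -0.07, with 0.83 in M504 and -0.79 with batch terms. Of the interferon genes, 1 of 26 was higher (Usp18, 0.519 and 2.47 CPM) and 1 lower. In the list of 23 osteoarthritis genes, which the study chose on these samples, 2 were lower and 0 higher without overlap. Cholesterol synthesis had 2 of 23 lower without overlap and the pericellular matrix list 1 of 14, while chondrogenic regulators had 0 of 12. Without H504 these were 6 of 23, 3 of 14 and 3 of 12, beside 12.1% of all genes, and 0, 1 and 0 were higher, beside 14.3%.

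**Figure D5:**
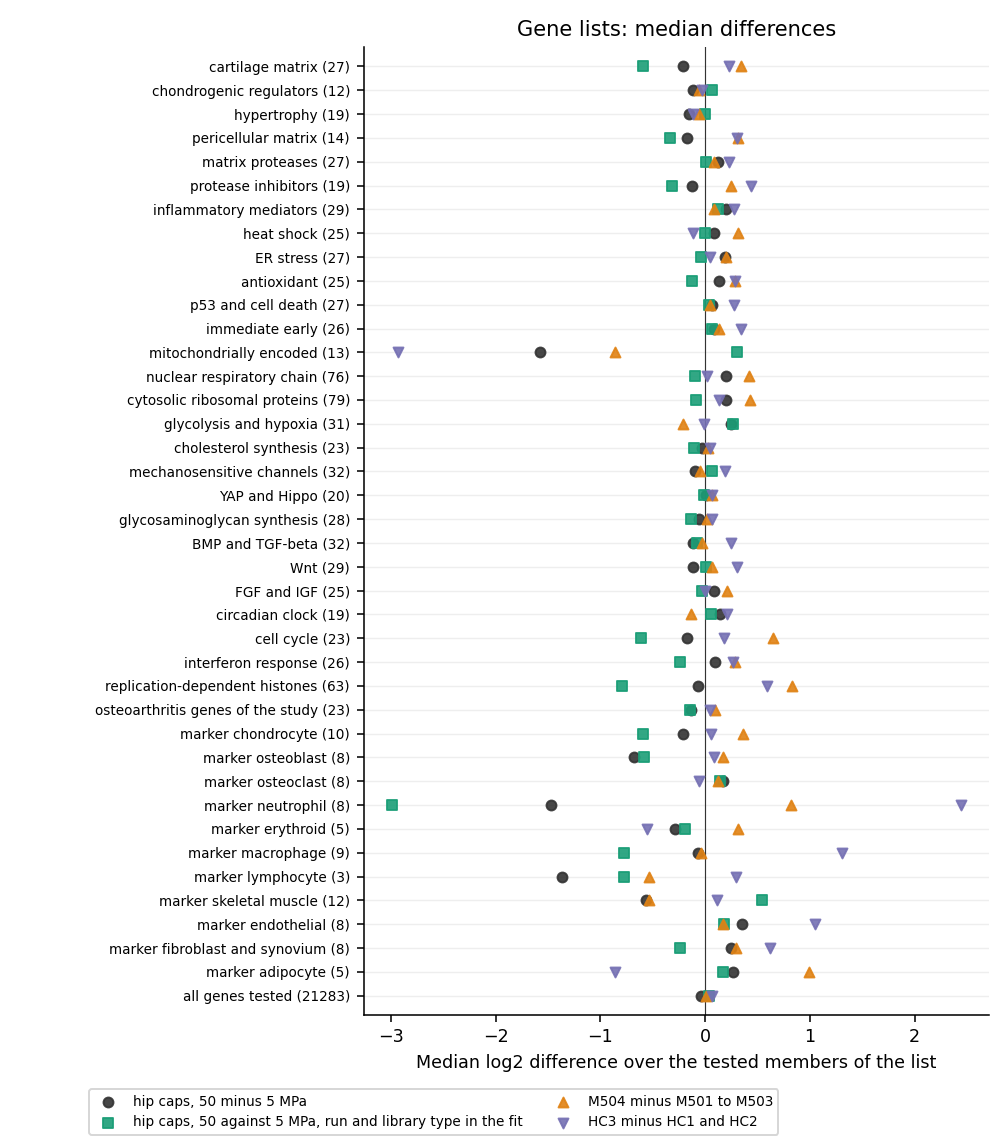
Median log2 difference over the tested members of each of the 39 lists (number tested in brackets) and over all genes: hip caps at 50 minus 5 MPa in mean log2 CPM (black circles), the same contrast with run and library type in the fit (green squares), M504 minus M501 to M503 (orange triangles up) and HC3 minus HC1 and HC2 (purple triangles down). The mitochondrially encoded list lies at -1.58 in the hip caps and on the same side in M504 and HC3, and 31 of the 39 lists lie within 0.25 of 0 in the hip caps.

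Summed markers of other cells varied widely between the libraries at 5 MPa. Neutrophil markers, all 8 tested, had negative differences with a median of -1.47, yet 0 did not overlap: their sum was 207 CPM in H53 and 46.9 in H51 beside 12.9 and 13.8 in H52 and H54, and between 7.43 and 27.7 CPM at 50 MPa. S100a8 averaged 15.1 ± 18.8 and 3.68 ± 1.92 CPM. H53 was also highest in fibroblast, macrophage and lymphocyte markers, at 9223, 699 and 36.3 CPM. Of 3 tested lymphocyte markers, 2 were lower without overlap (Ighm and Cd3d), beside 6.49% of all genes. All 9 listed lymphocyte markers summed to 7.52 to 36.3 CPM at 5 MPa and 5.57 to 7.07 at 50 MPa, without overlap. Osteoclast markers summed to 595 to 1799 CPM at 5 MPa and 601 to 1786 at 50 MPa, and endothelial ones to between 64.3 and 291 and between 103 and 152. Erythroid and adipocyte markers held 0 genes without overlap. The part of these cells in the gene differences was not tested.

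The same pressures in the metatarsals did not separate either. The 22-library fit called 0 genes between 50 and 5 MPa there, with 162 under an unadjusted p of 0.05, and DESeq2 called 2. The test of whether the difference between 50 and 5 MPa differs between the tissues called 0 genes in edgeR, with 1241 under an unadjusted p of 0.05 and a smallest adjusted p of 0.128, and DESeq2 called 47. Gstm1 and Gsg1l had interaction adjusted p of 0.142. By contrast, the batch difference within the 12 metatarsal libraries, which rests on M504, called 716 genes higher (3.69%) and 687 lower (3.54%) in run 1 unstranded of 19382 tested, and run alone, which rests on MC1, called 547. Of the genes called in the 7 libraries, 91 of the 209 and all 44 were testable there, and 55 and 18 were called with the same sign.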

How the data were processed

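RNA of hip caps and metatarsals was sequenced as rRNA-depleted paired-end libraries. The methods report RNA integrity values below the ideal minimum and propose some partial degradation of the RNA. They give no such value per library. The authors trimmed reads with Trim Galore 0.6.5, quantified them with kallisto (build GRCm39 per the labels) and deposited estimated counts per gene, summed with tximport and not normalized. Of 52178 genes, 48897 took a name from GENCODE M21 (GRCm38), used for names, strand and overlap only. Library type came from the labels. The run of each library is not in the labels and was read from the colour strip of a heat map in the study, which does not match the library numbers per sequencing kit in the methods. The methods call all libraries strand specific but hold strandedness as a batch term in the model, and the labels list 6 as unstranded.

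Estimated counts were rounded and fitted with edgeR 4.0.16 (limma 3.58.1, DESeq2 1.42.0, R 4.3.3): filterByExpr, TMM, robust quasi-likelihood, terms for group, run and library type, 22 libraries without HC4 and H502, two-sided, adjusted p of at most 0.05. CPM are TMM-scaled, and log2 CPM used a prior count of 2. Values of HC4 and H502 were scaled with all 24 libraries. Sequencing depth sets the precision, and p-values measure the spread between libraries of a group. In the 22-library fit the batch terms lean on single libraries, with weights of -0.68 for M504 and -0.32 for MC1 and HC3. In the 7-library fit the p-values cannot separate pressure from run and library type. Genes named were up to 12 per direction past the threshold of the 22-library fit with no overlap and at least 1 CPM in the higher group, without predicted genes, filled by smallest p; up to 6 per direction from the 7-library fit with under 0.5 units in M504; and members of 39 lists. Snai2, Unc45a, Mkrn2, Bdh2, Gxylt2 and the mitochondrial tRNAs fell outside this rule and were chosen after their values were seen. The members and lists were chosen with earlier results of these data known. The fits were tested on simulated data. A result on 1 listed gene is not reported here.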

Additional observations from a re-analysis of the deposited data

Results flagged for a closer look

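Within the 4 hip caps at 5 MPa, 2 of 81 named genes had 1 library far from the others, where chance flags about 1 in 20. Lum was at 6.51 log2 CPM in H52, against 6.72 to 6.75 in the other 3 libraries. Ccl2 was at 4.52 log2 CPM in H54, against 5.33 to 5.44 in the others. In H502, the library at 50 MPa that was not used, the predicted gene Gm10800 took 41.1% of all counts, against 0.0001% to 2.27% in the 22 libraries used.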

How the results depend on the processing

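The count of genes between 50 and 5 MPa stayed at 0 under 13 other settings. Among them, a limit of at least 1 log2 unit on the same fit could only give 0. It was 253 in the 7 libraries alone, 677 without batch terms, 34 in DESeq2, 1 in limma-voom and 0 to 3 with 1 library left out. The interaction count was 2 without a filter, 11 without batch terms, 47 in DESeq2 and 0 to 6 with 1 library left out. The metatarsal pressure count was 2 in DESeq2. The metatarsal batch count of 1403 was 547 for run alone, 2852 without a filter and 580 to 1672 with 1 library left out. It could not be fitted without M504. The 7-library count of 253 was 158 with H502, 1378 without a filter, 547 in DESeq2, 151 without H51, 160 without H54, and 134 (without H501) to 883 (without H504) with 1 library left out.

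Single genes reversed as follows, in log2 fold change, and the cause was not tested. With 10 hip cap libraries and library type only, Tmem80 was -0.72, Gpr162 -0.97, Gpr17 -4.55, Phex 0.31, Vmn1r224 0.32, Gpr37 0.43 and Olfr620 0.69. With all 24 libraries, Tmem80 was -0.37, Phex 0.013, Has3 0.20, Olfr109 1.00, Olfr620 1.65, Slc6a5 1.89, Olfr1039 2.31, Gpr37 2.65, Vmn1r224 3.40 and Xkrx 3.96. Has1 was 3.05 in the 7 libraries, 3.04 without batch terms and 0.063 with run only, and Has3 was 3.42, 3.40 and 0.98, and 0.27 in limma-voom. With 1 library left out, the range was -0.84 to 5.00 for Mab21l1, -0.87 to 1.68 for Tmem80, -1.02 to 2.78 for Gpr162, -2.33 to 1.17 for Olfr620, -2.34 to 1.60 for Gpr37, -3.01 to 1.64 for Olfr1039 and -2.59 to 2.31 for Vmn1r224, where M504 was the library whose removal turned the sign. Has3 ranged from -0.68 to 0.089 and turned positive without M504, H504 or H53.

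With the replicate number as a block, 0 genes passed and 980 had an unadjusted p under 0.05. Samples of 1 number had residual correlations of 0.07, -0.13 and 0.04, so the numbers did not pair them, and the block changed no count of calls. Scaling by library size alone moved the median difference over all genes from -0.04 to -0.40. Depth and the 3 libraries at 50 MPa limit what could be detected, and H504 had the lowest total.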
